A study of Mus musculus with 10 samples.

Results

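The chaperonin CCT, also called TRiC, is the subject here, as the 8 genes of its subunits among the 35976 genes of the deposited count table. They are Tcp1 (the alpha subunit), Cct2 (beta), Cct3 (gamma), Cct4 (delta), Cct5 (epsilon), Cct6a (zeta), Cct7 (eta) and Cct8 (theta), taken by their gene symbols. All 8 were found in the table, and all 8 passed the filter on low counts in each comparison. The libraries hold polyadenylated RNA from morulae, the compacting cleavage stage, of BDF1 x PWK mice. Single female embryos gave 3 Jarid2 knockout libraries (replicates 1, 3 and 4) and 3 wild-type libraries (replicates 1 to 3). Pools of about 20 embryos gave 2 Jarid2 knockout and 2 control libraries (replicates 1 and 2 of each). The sex of the pooled embryos, the way the knockout was made and the alleles of the controls are not stated in the labels. Jarid2 encodes a cofactor of the Polycomb complex PRC2, which methylates histone H3 at lysine 27.

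CCT is a barrel of stacked rings in the cytosol, in which each subunit has a fixed place. It binds ATP, closes over newly made proteins and folds them, above all actin and tubulin. Prefoldin hands such proteins to it, and phosducin-like proteins bind it and tune its work. In cleaving embryos actin and tubulin form the cell cortex and the mitotic spindle.

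Total counts were 14830332 to 18696312 in single embryos and 41003216 to 49861963 in pools, and the 8 genes together held 64242 to 152475 counts in a single embryo and 257346 to 349353 in a pool. The knockout label was checked on Jarid2, which had 156.1, 318.7 and 61.3 CPM (counts scaled to equal library totals) in knockout single embryos 1, 3 and 4, against 580.3, 686.0 and 775.6 CPM in wild-type embryos. In pools it had 180.6 and 157.9 CPM in knockouts, against 442.5 and 496.3 CPM in controls. Its log2 change was -1.92 in single embryos (SE 0.43, adjusted p = 0.0342 by edgeR) and -1.55 in pools (SE 0.18, adjusted p = 0.0794 by edgeR). Without wild-type replicate 1 or 3, or knockout replicate 1 or 4, the single-embryo call was lost, at log2 changes of -2.03, -1.79, -1.88 and -1.52. All 12 markers of the morula, such as Pou5f1, Nanog and Cdx2, had a mean of at least 10 CPM in every group. Their summed level was 4162 to 5684 CPM in knockout and 5245 to 5453 CPM in wild-type single embryos, and 4354 to 4456 CPM in knockout and 4694 to 4867 CPM in control pools. Dppa3 alone averaged 2414.7 CPM in knockout and 1988.2 CPM in wild-type single embryos. Cdh1 was the only marker of this list called in single embryos. It had 124.5, 247.8 and 108.9 CPM in knockouts 1, 3 and 4, against 812.2, 404.8 and 608.2 CPM in wild types. The log2 change of Cdh1 was -1.91 (SE 0.32, adjusted p = 0.0180 by edgeR), and 0.18 (SE 0.26) in pools. The 9 markers of cumulus and granulosa cells together stayed at or under 0.877 CPM in every library, with Fshr, Has2, Ptx3, Inha and Inhba at 0 counts in all groups. The 4 fibroblast and blood markers together reached at most 1.05 CPM, with Hbb-bt and Ptprc at 0 in all groups. Oocyte markers, 8 genes in all, summed to 37.2 to 100.5 CPM in knockout and 51.1 to 167.5 CPM in wild-type single embryos. In pools they summed to 66.4 to 77.3 CPM in knockouts and 64.7 to 77.4 CPM in controls. Only 1 of the 8, Zp3, had a mean of at least 10 CPM, and it held most of each sum. Zp3 had 97.2, 62.9 and 35.6 CPM in knockout single embryos 1, 3 and 4, against 161.0, 130.9 and 45.9 CPM in wild types. In bulk RNA of whole embryos, fewer cells and less RNA per cell cannot be told apart.

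In single embryos CCT genes were higher in knockouts. Of the 8, 4 rose past a 5% false discovery rate and 0 fell (edgeR's quasi-likelihood test, Benjamini-Hochberg adjusted over 13830 genes). The 4 that rose were Tcp1, Cct5, Cct4 and Cct7. Over all genes tested, 4.37% were called in either direction and 1.16% were called higher. All 8 members had a positive log2 change, from 0.42 (Cct2) to 1.22 (Tcp1), and all 8 had an unadjusted p under 0.05, as had 3131 of the 13830 genes. Their median was 0.71, against -0.03 for all genes tested, of which 15.5% lay above 0.71. In 7 of the 8 every knockout embryo was above every wild-type embryo in CPM, as in 12.6% of all genes tested. Cct6a was the exception. This count rests on library totals alone. With TMM scaling over all 10 libraries, knockout replicate 3 fell below wild-type replicate 3 in Cct8. The values were -0.22 and -0.17, as log2 deviations from the mean of the single embryos. In Cct6a knockout replicate 3 was then level with wild-type replicate 2 (-0.171 and -0.173). Without wild-type replicate 1 or 3, or without knockout replicate 1 or 4, 0 of the 8 passed (edgeR, 5%). Those fits called 41, 1, 66 and 1 genes in all, in that order, against 605 with every embryo. Without wild-type replicate 2 only Tcp1 passed, with 520 genes in all. Without knockout replicate 3 the count was 7, with 1316 genes in all. The number of members called thus went with the number of all genes called.

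Tcp1, named for the t complex of mouse chromosome 17 (12915701 to 12925067, plus strand, GRCm38), showed the largest change of the 8. It had 645.1, 398.0 and 746.5 CPM in knockout single embryos 1, 3 and 4, against 228.0, 321.4 and 253.3 CPM in wild-type embryos 1 to 3. The lowest knockout embryo lay above the highest wild-type embryo, and knockout replicate 3 was far below the other knockouts. The means were 596.5 ± 179.3 CPM in knockouts and 267.6 ± 48.3 CPM in wild types (SD, n = 3 each), and the log2 change was 1.22 (SE 0.26, adjusted p = 0.0311 by edgeR).

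Cct5 (chromosome 15, 31590800 to 31601804, minus strand) had 1114.9, 776.9 and 1212.4 CPM in knockout embryos 1, 3 and 4, against 486.0, 590.4 and 639.1 CPM in wild-type embryos. Again knockout replicate 3 stood nearest to the wild types without reaching them. The log2 change was 0.91 (SE 0.22, adjusted p = 0.0454 by edgeR). Cct4 (chromosome 11, 22990519 to 23003780, plus strand) had 969.1, 771.4 and 1046.5 CPM in knockouts and 548.0, 603.6 and 559.6 CPM in wild types. Its wild-type values were close together, at 570.4 ± 29.3 CPM (SD, n = 3), and the log2 change was 0.76 (SE 0.19, adjusted p = 0.0454 by edgeR). Cct7 (chromosome 6, 85451514 to 85468475, plus strand) had 1255.4, 1175.7 and 1290.7 CPM in knockouts, against 751.6, 793.8 and 875.0 CPM in wild types. Its knockout values varied least among those of the 4 called genes, at 1240.6 ± 58.9 CPM, and the log2 change was 0.67 (SE 0.16, adjusted p = 0.0454 by edgeR).

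The other 4 subunit genes did not pass over all genes tested. Cct8 (chromosome 16, 87483326 to 87495873, minus strand) had 1463.1, 921.7 and 1575.9 CPM in knockouts and 771.8, 819.3 and 888.1 CPM in wild types. Knockout replicate 3 was only just above the wild types in CPM, and was not with TMM scaling over all 10 libraries. The log2 change was 0.74 (SE 0.23, adjusted p = 0.0897 by edgeR). Cct3 (chromosome 3, 88297116 to 88321767, plus strand) had 846.2, 757.9 and 832.1 CPM in knockouts against 427.9, 633.6 and 518.0 CPM in wild types, and its log2 change was 0.68 (SE 0.19, adjusted p = 0.0678 by edgeR). Cct6a (chromosome 5, 129786998 to 129846371, plus strand) had 1030.3, 746.1 and 1095.0 CPM in knockouts against 622.8, 767.8 and 684.6 CPM in wild types. Knockout replicate 3 lay within the wild-type values in CPM, and the log2 change was 0.53 (SE 0.21, adjusted p = 0.156 by edgeR). Cct2 (chromosome 10, 117051001 to 117063814, minus strand) had 676.0, 698.4 and 638.0 CPM in knockouts against 495.5, 597.7 and 462.1 CPM in wild types. It is the only member in which replicate 3 was the highest knockout, and its log2 change was 0.42 (SE 0.17, adjusted p = 0.161 by edgeR).

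**Figure D1:**
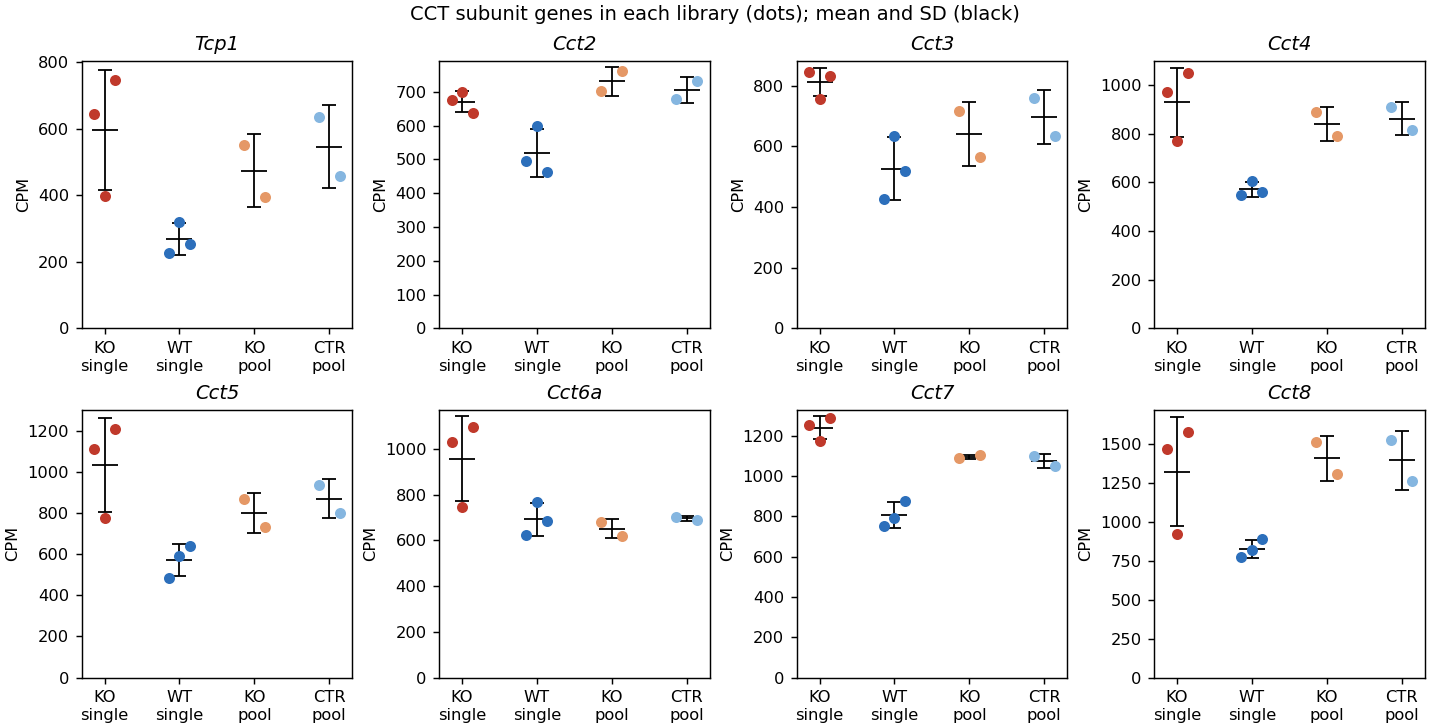
CPM of the 8 CCT subunit genes (vertical axes, from 0) in each of the 10 libraries, by group: Jarid2 knockout and wild-type single embryos, then Jarid2 knockout and control pools. Dots are libraries and black bars the mean and SD; the wild-type single embryos lie below the knockout ones in every panel but that of Cct6a, where knockout replicate 3 (746.1 CPM) is within the wild-type values.

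Within each genotype of single embryos, the same library was the lowest in CPM for most subunits. Among knockout single embryos, replicate 3 was the lowest for 7 of the 8 genes and replicate 4 the highest for 6. Among wild types, replicate 1 was the lowest for 7 of the 8, while the highest was replicate 2 for 5 genes and replicate 3 for 3. Together the 8 genes took 0.800%, 0.625% and 0.844% of all counts in knockout single embryos 1, 3 and 4, against 0.433%, 0.513% and 0.488% in wild-type embryos 1 to 3. The groups did not overlap. Knockout replicate 3 also had the most Jarid2 of the knockouts (318.7 CPM) and replicate 4 the least (61.3 CPM). Other groups did not share 1 direction. Wild-type replicate 1 had the least Jarid2 of the wild types (580.3 CPM) and the lowest CCT share. Knockout pool 1 had more Jarid2 than pool 2 (180.6 against 157.9 CPM) and more CCT (0.701% against 0.628%). Control pool 1 had less Jarid2 than pool 2 (442.5 against 496.3 CPM) and more CCT (0.725% against 0.644%). Whether the remaining Jarid2 has a part in the order of the CCT genes was not tested.

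The single-embryo values of all genes differ with a property of the encoded protein, a split known from earlier results on these data. Of the CCT subunits 7 lack a hydrophobic segment, and Cct8 has one by the score used (a mean Kyte-Doolittle value of at least 1.6 over 19 residues). The median log2 change of all genes without a segment was 0.14 over 7855 genes, of which 137 (1.74%) were called higher. Genes with a segment had a median of -0.49 over 3824 genes, of which 15 (0.392%) were called higher. The part of this class difference in the values of the CCT genes was not tested.

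In pools the subunit genes did not pass in either direction. By edgeR 0 of the 8 were called, with 0 at an unadjusted p under 0.05, and DESeq2 and limma-voom called 0 as well. The background is also 0% of 16259 genes by edgeR, with 1073 genes at an unadjusted p under 0.05, while DESeq2 called 71 genes and limma-voom 1. The log2 changes ran from -0.29 (Tcp1) to -0.04 (Cct2), with a median of -0.15 against 0.01 for all genes tested. Every knockout pool was above every control pool for 0 of the 8 genes, compared with 24.3% of all genes tested. Cct6a was the single member with both knockout pools (681.3 and 621.0 CPM) below both control pools (703.5 and 687.9 CPM), at -0.18 (SE 0.17, edgeR adjusted p = 0.90). The same held for 11.1% of all genes tested.

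Tcp1 had 551.0 and 396.5 CPM in knockout pools 1 and 2, against 634.4 and 458.1 CPM in control pools. The pools of each genotype differed from each other more than the genotypes did, and the log2 change was -0.29 (SE 0.24, 95% interval -0.81 to 0.24). Cct5 had 869.0 and 731.5 CPM in knockout pools against 938.9 and 803.6 CPM in control pools, and Cct4 had 890.1 and 791.6 CPM against 908.3 and 814.9 CPM. In both genes the groups overlapped. Cct7 varied least, with 1089.7 and 1102.8 CPM in knockout pools and 1099.4 and 1050.7 CPM in control pools (log2 change -0.06, 95% interval -0.41 to 0.30). Cct8 had 1508.3 and 1304.0 CPM in knockout pools against 1526.1 and 1260.9 CPM in control pools. Cct3 had 715.5 and 566.5 CPM in knockout pools against 758.7 and 633.0 CPM in control pools, and Cct2 had 701.4 and 762.2 CPM against 678.4 and 733.2 CPM. Pool 1 exceeded pool 2 for 6 of the 8 genes in knockouts and for 7 in controls. The upper ends of the 95% intervals, 0.19 to 0.34, lay below the single-embryo estimate of the same gene for all 8 members. That leaves out the error of the single-embryo estimates. Their 95% intervals began at 0.06 for Cct2, 0.08 for Cct6a and 0.23 for Cct8, below the upper ends in pools (0.31, 0.19 and 0.34). For the other members the intervals of single embryos and pools did not overlap. The difference itself is tested below. Signs in pools are not firm: Cct2, Cct7 and Cct8 turned slightly positive without scaling beyond library totals (0.052, 0.028 and 0.013). Without knockout pool 2, Cct3 (0.017), Cct4 (0.024) and Cct8 (0.091) were positive, as was Cct8 without control pool 1 (0.10).

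The difference between the knockout effects of single embryos and pools was tested in a fit over all 10 libraries. It was positive for all 8 genes, with a median of 0.86 against -0.05 for all 15878 genes tested. The differences ran from 0.48 (Cct2, 95% interval 0.02 to 0.95) to 1.53 (Tcp1, 0.63 to 2.43). All 8 had an unadjusted p under 0.05, as had 2326 genes in all, but by edgeR 0 of the 8 passed 5% after adjustment (adjusted p = 0.235 to 0.327). Over all genes 0.0063% passed, a single gene. DESeq2 called 4 of the 8, Tcp1, Cct4, Cct5 and Cct7, and 544 genes in all, which is 11.3% of the 4795 genes to which it gave an adjusted p. By limma-voom 0 of the 8 were called, and 1 gene in all. With edgeR and no filter on low counts, 2 of the 8 (Tcp1 and Cct5) and 2.08% of 26290 genes were called.

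**Figure D2:**
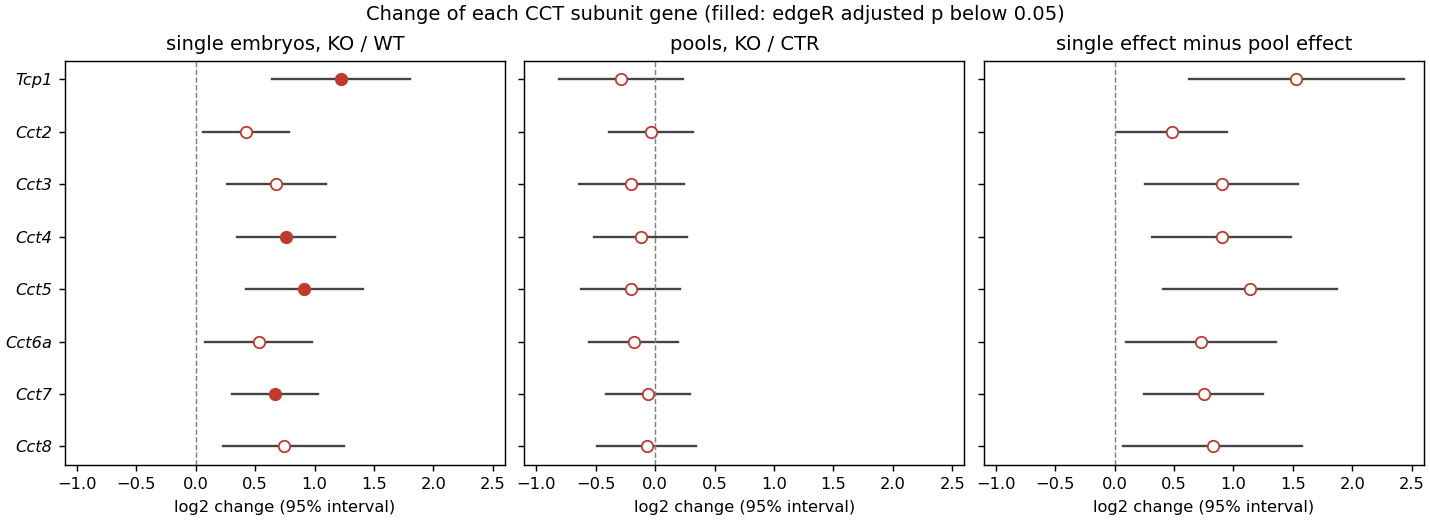
Log2 change of each CCT subunit gene with its 95% interval (horizontal axes) in single embryos (Jarid2 knockout over wild type), in pools (Jarid2 knockout over control) and as the single-embryo effect minus the pool effect. Filled points passed an edgeR adjusted p of 0.05: Tcp1, Cct4, Cct5 and Cct7 in single embryos, with all pool intervals reaching across 0.

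Set beside the pools, the wild-type single embryos were the low group. For 6 of the 8 genes (Tcp1, Cct2, Cct4, Cct5, Cct7 and Cct8) every wild-type single embryo was below every pool of either genotype, as in 15.5% of all genes tested. For 0 of the 8 were the knockout single embryos all below the pools, compared with 7.94% of all genes tested. For 2, Cct6a and Cct7, they were all above, compared with 10.9%. The summed share of the 8 genes was 0.756 ± 0.116% in knockout and 0.478 ± 0.041% in wild-type single embryos (SD, n = 3 each), and 0.664 ± 0.052% in knockout and 0.685 ± 0.057% in control pools (SD, n = 2 each). Input, depth and possibly sex differ between single embryos and pools, and their part in this order cannot be told apart from a difference between the embryos.

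Per kilobase of transcript the subunit mRNAs were not equally abundant, although each ring holds the subunit proteins in equal number. Levels of mRNA do not give amounts of protein, which were not measured. The part of sequence shared with other genes, described below for Tcp1 and Cct6a among others, in this ranking was not tested. The values (TPM) are computed from the counts and the longest transcript of each gene. Cct8 had the highest level in 9 of the 10 libraries, and Cct7 in knockout single embryo 3. Tcp1 had the lowest level in all 10. Scaled by coding sequence instead, Cct8 was again highest in 9 and Tcp1 lowest in 9, with Cct2 lowest in knockout single embryo 4. The highest exceeded the lowest 2.16-fold to 2.96-fold in knockout single embryos, 2.6-fold to 3.58-fold in wild-type embryos, 2.8-fold and 3.36-fold in knockout pools, and 2.46-fold and 2.81-fold in control pools.

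In knockout single embryos the order by mean level was Cct5 (985.2 TPM), Cct8 (972.5), Cct7 (897.8), Cct3 (725.6), Cct6a (688.2), Cct4 (660.2), Cct2 (605.3) and Tcp1 (430.0). Values of neighbours in that order overlapped, except between Cct7 and Cct3 and between Cct2 and Tcp1. In wild-type embryos it was Cct8 (636.6 TPM), Cct7 (609.5), Cct5 (569.3), Cct6a (520.3), Cct3 (491.9), Cct2 (488.8), Cct4 (423.8) and Tcp1 (202.1), and only Cct4 and Tcp1 did not overlap. In knockout pools Cct8 (983.5 TPM) and Cct7 (752.3 TPM) led, and Cct6a (444.3 TPM) and Tcp1 (324.2 TPM) came last. In control pools Cct8 (980.9 TPM) and Cct5 (792.5 TPM) led, with Cct6a (478.0 TPM) and Tcp1 (376.2 TPM) last. As a share of the summed TPM of the 8, Tcp1 held 7.10 ± 1.18% in knockout and 5.10 ± 0.54% in wild-type single embryos (SD, n = 3 each), and 6.50 ± 1.0% in knockout and 7.26 ± 1.07% in control pools (SD, n = 2 each). The share of Cct2 was 10.3 ± 2.1% in knockout and 12.4 ± 1.4% in wild-type single embryos. No test was run on the shares.

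**Figure D3:**
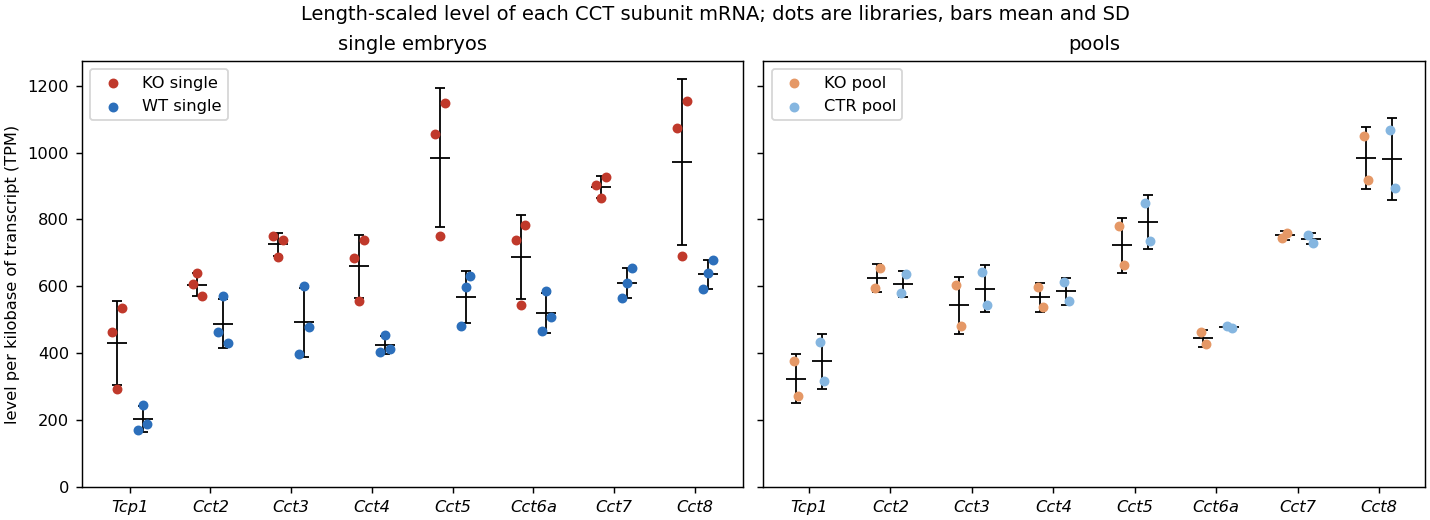
Level of each CCT subunit mRNA per kilobase of its longest transcript (vertical axis, TPM, from 0) in single embryos (knockout left of wild type) and pools (knockout left of control). Dots are libraries and black bars the mean and SD; Tcp1 is lowest in every library and Cct8 is highest in 9 of the 10.

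Some subunit genes share exon sequence with a neighbour on the opposite strand, and whether the counting used strand is not given. Tcp1 shares 571 exon bases with Acat3 and 141 with Mrpl18, and 21.1% of the windows of 75 bases (the read length) in its longest transcript also occur in transcripts of Acat3 or Acat2. The share was 15.9% for Cct6a (with Psph), 5.96% for Cct7 (with Pradc1), 5.09% for Cct8 (with Usp16) and 0% for Cct2, Cct3, Cct4 and Cct5. Acat3 itself had 0.0478% to 0.946% as many counts as Tcp1 in the libraries. Acat2 had 10.6% to 26.6% as many, and averaged 93.4 CPM in knockout and 59.0 CPM in wild-type single embryos. Its part in the values of Tcp1 was not tested. Psph had 1.29% to 4.56% as many counts as Cct6a, Pradc1 3.29% to 4.97% as many as Cct7, and Usp16 9.66% to 18.8% as many as Cct8. Mrpl18, which shares exon bases with Tcp1 but no such window of its longest transcript, had 62.0% to 153.9% as many counts as Tcp1, and averaged 441.9 CPM in knockout and 357.7 CPM in wild-type single embryos. No shared window was found between the subunits' transcripts and annotated pseudogene transcripts.

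Since the subunit genes changed in the same direction in single embryos, their promoters are shown for the largest changes, Tcp1 and Cct5, and for the smallest, Cct2. Each runs from 250 bases before the annotated start to 50 bases after it, in gene orientation (RefSeq, GRCm38.p6). The gene coordinates given above are those of GENCODE, whose starts differ. By GENCODE Tcp1 begins at base 12915701, so its window here lies inside the gene, as does that of Cct6a. Windows were found for 7 of the 8 genes, without Cct4. Cct2 and Cct5 have 2 annotated starts each, and the outermost was used for the sequences and for the counts of matches. Capitals mark matches on either strand to the heat shock element in both arrangements (TTCNNGAA and GAANNTTC), the ETS motif CCGGAAG, the NRF1 motif GCGCATGCG, the CCAAT box CCAAT and the GC box GGGCGG.
Tcp1, chr17:12916079-12916378, plus strand: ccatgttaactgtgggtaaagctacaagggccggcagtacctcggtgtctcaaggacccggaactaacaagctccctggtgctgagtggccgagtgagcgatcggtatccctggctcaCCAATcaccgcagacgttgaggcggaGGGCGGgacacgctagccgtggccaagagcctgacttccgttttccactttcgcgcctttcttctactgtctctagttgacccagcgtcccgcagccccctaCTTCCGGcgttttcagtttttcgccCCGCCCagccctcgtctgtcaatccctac
Cct5, chr15:31601797-31602096, minus strand: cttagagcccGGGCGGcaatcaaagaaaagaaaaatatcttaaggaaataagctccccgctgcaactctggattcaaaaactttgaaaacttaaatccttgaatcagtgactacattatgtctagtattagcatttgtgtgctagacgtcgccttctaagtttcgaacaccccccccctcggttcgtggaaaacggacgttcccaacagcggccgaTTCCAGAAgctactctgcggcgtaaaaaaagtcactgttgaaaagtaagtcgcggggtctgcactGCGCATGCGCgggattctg
Cct2, chr10:117063803-117064102, minus strand: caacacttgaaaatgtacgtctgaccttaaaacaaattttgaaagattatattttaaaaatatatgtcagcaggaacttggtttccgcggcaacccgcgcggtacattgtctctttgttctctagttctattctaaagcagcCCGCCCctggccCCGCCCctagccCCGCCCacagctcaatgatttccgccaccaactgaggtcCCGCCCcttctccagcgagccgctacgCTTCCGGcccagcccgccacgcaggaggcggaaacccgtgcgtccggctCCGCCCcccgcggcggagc

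All 7 promoters held a GC box, which 35.7% of the 32851 promoter windows of the table hold. The ETS motif was in 3 (Tcp1, Cct2 and Cct8; 8.86% of all windows), and the CCAAT box in 4 (Tcp1, Cct3, Cct6a and Cct7; 37.4%). The first arrangement of the heat shock element was in Cct5, at base -34 from the start, and in Cct6a, at base 25, and 8.52% of all windows hold it. The other was in 0 of the 7 (7.86%). The NRF1 motif was in Cct5 alone of the 7 (1.75%), where a match on each strand overlaps the other. GC content was 59.3% for Tcp1, 47.3% for Cct5 and 57.3% for Cct2, against a median of 52.7% over all windows. At the inner start, the window of Cct2 held the second arrangement of the heat shock element at base -42 and 2 GC boxes but no ETS motif, and that of Cct5 held 0 of the motifs searched, at a GC content of 63.7%. A match describes letters and is not evidence of binding. Hsf1 and Hsf2, which encode heat shock transcription factors, had log2 changes of 0.03 (SE 0.27) and 0.16 (SE 0.23) in single embryos, and -0.17 (SE 0.19) and -0.05 (SE 0.17) in pools.

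Around CCT, 56 genes of cofactors, relatives, substrates and the 2 heat shock factors were followed. In single embryos 42 of the 52 tested were positive, 2 rose past 5% and 0 fell (edgeR). Over all genes tested there, 1.16% were called higher and 4.37% in either direction. The median log2 change of the 52 was 0.38, against -0.03 for all genes tested. The share of all genes that were positive was not counted. In pools 11 of the 53 tested were positive, 0 passed by edgeR (4 at an unadjusted p under 0.05), and the median was -0.11. Of all 16259 genes tested in pools, 0 passed by edgeR and 1073 had an unadjusted p under 0.05, with a median log2 change of 0.01.

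Prefoldin, which delivers unfolded actin and tubulin to CCT, had 1 of 6 subunit genes called in single embryos. Vbp1, its subunit 3, had 434.9, 284.2 and 413.2 CPM in knockouts 1, 3 and 4, against 164.7, 189.9 and 190.4 CPM in wild types. The groups were well apart, and the log2 change was 1.12 (SE 0.23, adjusted p = 0.0269 by edgeR). Pfdn6 (0.57, SE 0.20, adjusted p = 0.115) and Pfdn5 (0.49, SE 0.20, adjusted p = 0.170) did not pass. All 6 were positive in single embryos, with a median of 0.44, and 3 of 6 in pools, with a median of 0.02, where Pfdn6 had 0.31 (SE 0.16), Pfdn5 0.15 (SE 0.16) and Vbp1 -0.12 (SE 0.25). Of the phosducin-like and related cofactors, which bind CCT and modulate folding, 3 of 4 were tested, without Pdcl2. Txndc9 (0.90, SE 0.23, adjusted p = 0.0536), Pdcl3 (0.79, SE 0.27, adjusted p = 0.112) and Pdcl (0.63, SE 0.26, adjusted p = 0.175) were positive without passing in single embryos. In pools they had -0.04 (SE 0.18), -0.14 (SE 0.20) and -0.02 (SE 0.18).

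Among 16 genes of actins, actin-related proteins and tubulins, the main substrates, 14 were tested in single embryos and 1 rose. Actg1, which encodes cytoplasmic gamma-actin, had 438.2, 343.6 and 669.8 CPM in knockouts against 114.0, 230.1 and 198.3 CPM in wild types, and rose by 1.48 on the log2 scale (SE 0.31, adjusted p = 0.0295 by edgeR). In pools it had 271.9 and 171.2 CPM in knockouts against 349.2 and 257.1 CPM in controls, or -0.53 on the log2 scale (SE 0.26, adjusted p = 0.787). Actb, the beta-actin gene, had 3149.5, 2828.2 and 4029.4 CPM in knockout and 4046.8, 3329.1 and 4234.2 CPM in wild-type single embryos, and -0.16 (SE 0.19) was no call. Tubg1, for the gamma-tubulin of spindle poles, had 0.82 (SE 0.27, adjusted p = 0.104) and Tubb4b 0.95 (SE 0.31, adjusted p = 0.106). In pools Tuba4a (-0.55, SE 0.20), Tubb5 (-0.38, SE 0.16) and Actg1 had the smallest p of the list without passing. Actins and tubulins have near-identical copies and pseudogenes, so their counts are uncertain. Actb here and Cct6b among the relatives were named after their values were seen.

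Other clients and relatives showed no call. In single embryos the mitotic activator gene Cdc20 had 0.90 (SE 0.26, adjusted p = 0.0752), the phosphatase subunit gene Ppp2ca 0.70 (SE 0.21, adjusted p = 0.0802) and the cyclin E gene Ccne1 0.71 (SE 0.25, adjusted p = 0.119). The 15 genes of that list had a median of 0.27, with 4 at an unadjusted p under 0.05 and 0 called by edgeR. In pools their median was -0.11, and Gnb1 (-0.19, SE 0.16), Mlst8 (-0.23, SE 0.23) and Hdac3 (-0.20, SE 0.21) had the smallest p. The 6 tubulin cofactors, which take tubulin on from CCT, had medians of 0.63 in single embryos and -0.18 in pools. Of these Tbcc had 0.68 (SE 0.24, adjusted p = 0.124) in single embryos and -0.46 (SE 0.19, adjusted p = 0.709) in pools. In single embryos Tbca had -0.51 (SE 0.23) and Tbce 0.68 (SE 0.48), and in pools Tbcel had 1.67 (SE 0.56, adjusted p = 0.646) and Tbcb -0.27 (SE 0.17). Among chaperonin relatives, Mkks had 0.64 (SE 0.20, adjusted p = 0.0912) in single embryos and -0.10 (SE 0.16) in pools. Bbs10 had -0.46 (SE 0.80) in single embryos and -1.0 (SE 0.50) in pools. Hspd1, the chaperonin of mitochondria, had 0.23 (SE 0.17) in single embryos and -0.21 (SE 0.18) in pools. Cct6b, the close relative of Cct6a, was low at 7.16, 11.8 and 11.9 CPM in knockout and 6.07, 10.3 and 15.6 CPM in wild-type single embryos, and Cct8l1 did not pass the filter on low counts.

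**Figure D4:**
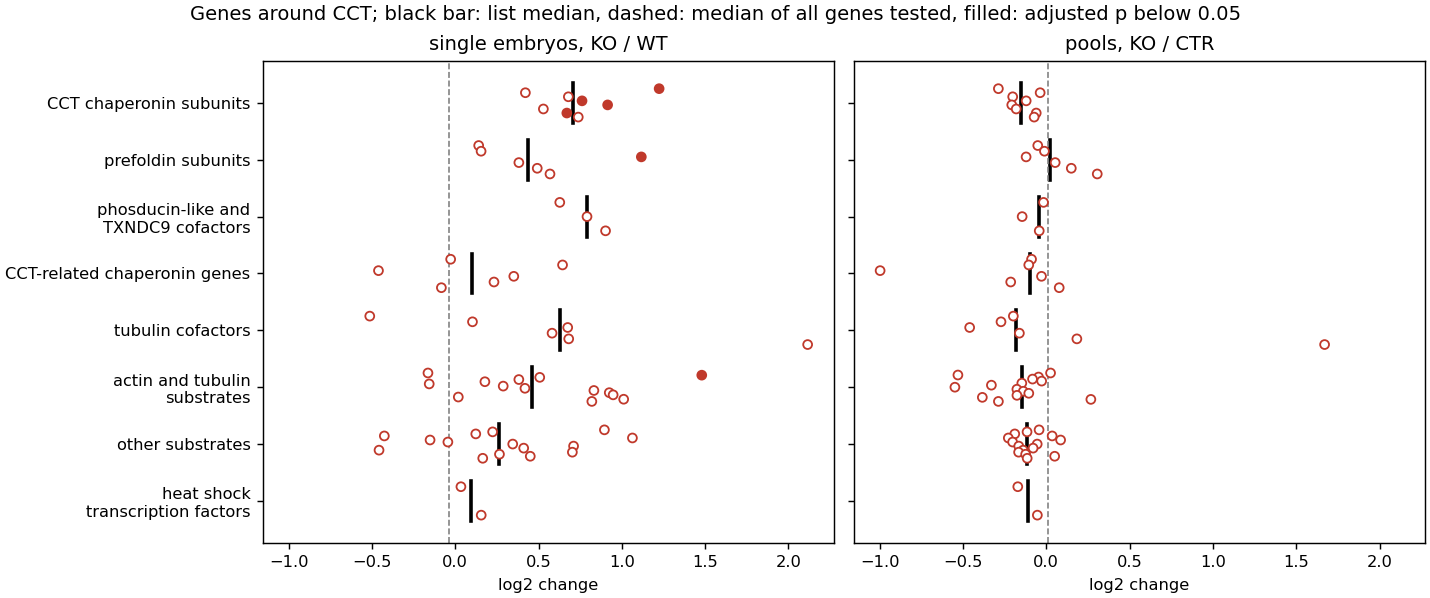
Log2 change of each tested gene (dots, horizontal axes) in the CCT subunit list and the lists of cofactors, relatives, substrates and heat shock factors, in single embryos (Jarid2 knockout over wild type) and in pools (Jarid2 knockout over control). Filled dots passed an edgeR adjusted p of 0.05, black bars are list medians and the dashed line is the median of all genes tested; the CCT median is 0.71 in single embryos and -0.15 in pools.

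The members differed in how closely they followed each other. Profiles were compared over the 10 libraries on log2(CPM + 1), TMM-scaled and centred within single embryos and within pools, by the root mean square difference. Cct4 was closest to the mean of the other members, at 0.0435, and Tcp1 (0.27) and Cct2 (0.24) were farthest, Tcp1 with the widest swings and Cct2 with the narrowest. The other 5 lay between 0.11 and 0.13. Of 7656 other genes with a mean of at least 10 CPM, those nearest to the mean of the 8 were Psmc6 (0.0347), an ATPase subunit of the proteasome, Ppp2ca (0.0443), Hspa14 (0.0542), an Hsp70 family gene, Sec13 (0.0654), of vesicle coats and the nuclear pore, and Tmem261 (0.0679). The median over these 7656 genes was 0.43, and a flat profile would be 0.34 away. In single embryos Psmc6 had a log2 change of 0.76 (SE 0.20, adjusted p = 0.0538), Hspa14 of 0.77 (SE 0.22, adjusted p = 0.0743) and Tmem261 of 0.70 (SE 0.25, adjusted p = 0.122). Sec13 rose by 0.86 (SE 0.22, edgeR adjusted p = 0.0494). The profiles used for the choice hold the step between knockouts and wild types. Changes near those of the members therefore follow from how these genes were chosen, and are not separate evidence.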

How the data were processed

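Values in the deposited table are raw counts of reads per gene (whole numbers, not normalized). The build mm10 and the tools STAR 2.7.6a, RSEM 1.3.1 and fastp 0.21.0 are named in the submitters' processing notes without their roles, and neither the annotation nor the use of strand is stated there. Per the labels' protocols, cDNA was made with SMART-Seq v4, built into libraries with Nextera XT and read single-end for 75 bases. Molecular identifiers are not mentioned, so a count is taken as a read and not as a molecule.

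The test was edgeR 4.0.16 in R 4.3.3 (filterByExpr, TMM, quasi-likelihood F test, two-sided, Benjamini-Hochberg at 5%), in single embryos and in pools by themselves, and over all 10 libraries for the difference of effects. Standard errors and 95% intervals come from the log2 change, its F value and its degrees of freedom. The code was tested on simulated data. CPM were computed from library totals. Coordinates, transcript lengths (for 26736 genes, 96.8% to 97.5% of counts) and proteins translated from transcripts come from GENCODE M21 (GRCm38, as mm10). GENCODE gives Cct6a no coding transcript, so its longest transcript was used.

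Replicates differed by far more than sampling noise (chi-square of 49.4 to 88.4 per gene), so each was counted once. Whether pools came from separate litters is not given, so p-values there may measure technical spread only. The labels give no batch. Alternatives were other scalings, DESeq2 1.42.0, limma-voom (limma 3.58.1), other filters, robust fitting, all 10 libraries together, the replicate number as a block, and each library left out. The log2 changes of the members in the difference of effects and of Jarid2 under these alternatives, and levels per coding sequence, were added after seeing the data.

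The members and gene lists were chosen with earlier results of these data known. Named are all members, Jarid2, from each list and comparison the 3 genes with the smallest p, and the 5 genes nearest in profile, leaving out predicted genes and pseudogenes. The markers Cdh1, Dppa3 and Zp3 were named after their values were seen.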

Additional observations from a re-analysis of the deposited data

How the results depend on the processing

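In single embryos the median log2 change of the 8 subunit genes stayed between 0.62 and 0.85 over all alternatives, and each of the 8 kept its positive sign. The number called, 4, was 4 to 6 under other scalings, tools and filters, with robust fitting and with all 10 libraries in one fit. It ran from 0 to 7 with 1 library left out, and the calls over all genes, 605, ran from 1 to 1316. Under the other alternatives the calls over all genes ran from 187 to 1957. With the replicate number as a block, 0 of the 8 were called in single embryos, where the median was 0.63 and 187 genes were called in all. In pools 0 of the 8 were called as well, where the median was -0.15 and 39 genes were called in all. Equal numbers do not pair embryos by the labels. Across genes, deviations of same-numbered libraries correlated at -0.02 and -0.09 in single embryos, and those of differently numbered ones at -0.161 to 0.162. In pools same-numbered libraries correlated at 0.31. With 2 pools per genotype the differently numbered ones must give the same value with its sign turned, here -0.31.

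In pools 0 of the 8 were called under every alternative that kept all pools. The calls over all genes were few there too. They were 71 by DESeq2, 1 by limma-voom, 170 without a filter on low counts and 39 with the replicate block. Under the other alternatives that kept all pools they were 0, as in the main fit. The median of the 8, -0.15, ran from -0.30 to -0.0074 with 1 library left out. Signs turned for Cct2 by upper quartile scaling (0.012), without scaling (0.052) and among genes of at least 10 CPM (0.023), and without scaling for Cct7 (0.028) and Cct8 (0.013). With 1 pool left out, Cct3 ran from -0.46 to 0.017, Cct4 from -0.28 to 0.024 and Cct8 from -0.26 to 0.10. For the difference of effects, DESeq2 called 4 of the 8 and edgeR without a filter on low counts called 2, against 0, while the calls over all genes were 544 and 548, against 1. The edgeR count stayed at 0 with any 1 library left out. The causes were not tested. A fit that leaves out a pool has a single library in 1 group, whose spread is assumed to be that of the other.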
